A study of Mus musculus x Mus spretus with 8 samples.

Results

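Chromosomes 2, 4, 9 and 11 of Patski cells were described in bins of 2 Mb, as stretches of the mouse genome (build mm10) with RNA almost wholly from a single parental genome. The chromosomes were chosen by the genome shares measured in the wild-type libraries. The bins run without overlap from position 1, each gene was placed by its start, and a bin was kept where every library held at least 100 reads assigned to a parental genome. This left 269 of the 290 bins with any gene: 82 of 90 on chromosome 2, 70 of 78 on chromosome 4, 60 of 62 on chromosome 9 and 57 of 60 on chromosome 11. Over the whole genome 1119 of 1373 bins reached the same minimum. A bin called 32 to 34 Mb begins at the base after 32 Mb. The first bins inside the minimum held 115 and 131 reads in their poorest library (16 to 18 Mb and 92 to 94 Mb of chromosome 4), and the first outside held 65 (28 to 30 Mb of chromosome 9) and 22 (28 to 30 Mb of chromosome 4).

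The data are RNA-seq counts of 8 libraries from Patski, a line of female mouse fibroblasts bred from C57BL/6 X SPRET/EiJ. Each of 4 groups has 2 libraries, namely wild type (WT) and the genotypes labelled stc1 -/-, pygo1 -/- and rlim -/-. All were grown in DMEM with 10% fetal bovine serum. The knockout libraries of a label come from 2 independent mutants, while the origin of the WT pair is not described, so each p-value below measures only the spread between these libraries. Each label is thus represented by few clones of a single line. Which parent is genome 1 is not in the labels, so the numbers 1 and 2 are kept as the count table gives them.

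A hybrid cell carries a copy of each autosome from each parent, and for most genes both copies are transcribed. A read over a strain-specific base can be given to its copy, so a bin's share of genome 1 reads follows the RNA of its copies. Cultured cell lines are known to lose, gain or duplicate whole chromosomes or arms, and their clones can differ in this. A bulk library cannot tell fewer cells carrying a copy from less RNA of that copy per cell.

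The libraries held 73128996 to 81500061 counts, of which 50.64 to 52.64% carried a genome, and 4.64 to 8.18% were mitochondrial (7.87% and 4.64% in the Stc1-labelled libraries 1 and 2). Fibroblast markers summed to 2479 to 5473 CPM (counts scaled to a common library size), almost all from Fn1 and Vim, whereas Thy1 and Col1a2 reached at most 0.0532 and 0.191 CPM. Kidney epithelium markers summed to 2468 to 3689 CPM, almost all from Cdh16, Pax2 and Pax8. Epcam, Krt8, Krt18 and Lhx1 reached at most 2.75, 1.73, 0.332 and 0.213 CPM, and Cdh1 at most 19.9. The fibroblast label was thus not matched by all its defining markers, and neither was a kidney epithelial identity. No targeted gene was called lower in its own pair. Stc1 stood at 3.84 and 3.15 CPM in WT and at 3.67 and 68.4 in the Stc1-labelled libraries. Rlim stood at 57.2 and 51.4 CPM in WT and at 71.9 and 64.2 in the Rlim-labelled libraries. Pygo1, which lies in the bin at 72 to 74 Mb of chromosome 9, stood at 2.49 and 2.44 CPM in WT, 1.79 and 10.5 in Stc1-labelled, 2.5 and 0.674 in Pygo1-labelled, and 3.15 and 2.62 in Rlim-labelled libraries. It was lower than WT in Pygo1-labelled library 2 alone of that pair, and in edgeR's quasi-likelihood test its change in the pair was -0.63 ± 0.84 (log2 ± SE, Benjamini-Hochberg adjusted p = 0.715). RNA of a null allele can still be counted, and groups are therefore named by their labels only.

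The WT shares chose these chromosomes, so they and every difference from them are given as a description without a test. The lesser genome, the genome with fewer reads on a chromosome, was genome 1 on chromosomes 2, 4 and 11 and genome 2 on chromosome 9. Pooled over its bins, chromosome 4 gave 4.7% and 4.69% genome 1 in WT, 4.41% and 4.88% in the Stc1-labelled, 4.74% and 4.69% in the Pygo1-labelled, and 4.64% and 4.61% in the Rlim-labelled libraries. Chromosome 11 gave 5.37% and 5.34% in WT, and 4.94% and 4.82%, 4.92% and 4.76%, and 4.86% and 4.84% in the 3 knockout-labelled pairs in the same order. Genome 2 on chromosome 9 gave 4.85% and 4.81% in WT, and 3.85% and 3.79%, 3.9% and 3.69%, and 3.71% and 3.64% in those pairs. On these 3 chromosomes the 8 libraries stayed within a narrow band: the whole range was 0.5 percentage points on chromosome 4, 0.6 on chromosome 11 and 1.2 on chromosome 9. The other autosomes, chromosome 2 aside, ranged over 1.5 to 45.3 points between libraries, with the narrowest on chromosome 12 and the widest on chromosome 14. This contrast is partly set by the choice of chromosomes, since a lesser share that is already small can fall by few points. A narrow range in points can also hold a large relative difference.

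Chromosome 2 did not keep to its name. It gave 10.91% and 11.05% genome 1 in WT, 6.33% and 6.83% in the Stc1-labelled, 6.5% and 6.42% in the Pygo1-labelled, and 25.75% and 25.8% in the Rlim-labelled libraries, a range of 19.5 points. The 95% Wilson interval of the first WT library was 10.87 to 10.95%, which covers counting error only. The 3 kinds of library did not overlap, and with these shares the chromosome was no longer near a single genome in the Rlim-labelled pair.

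**Figure D1:**
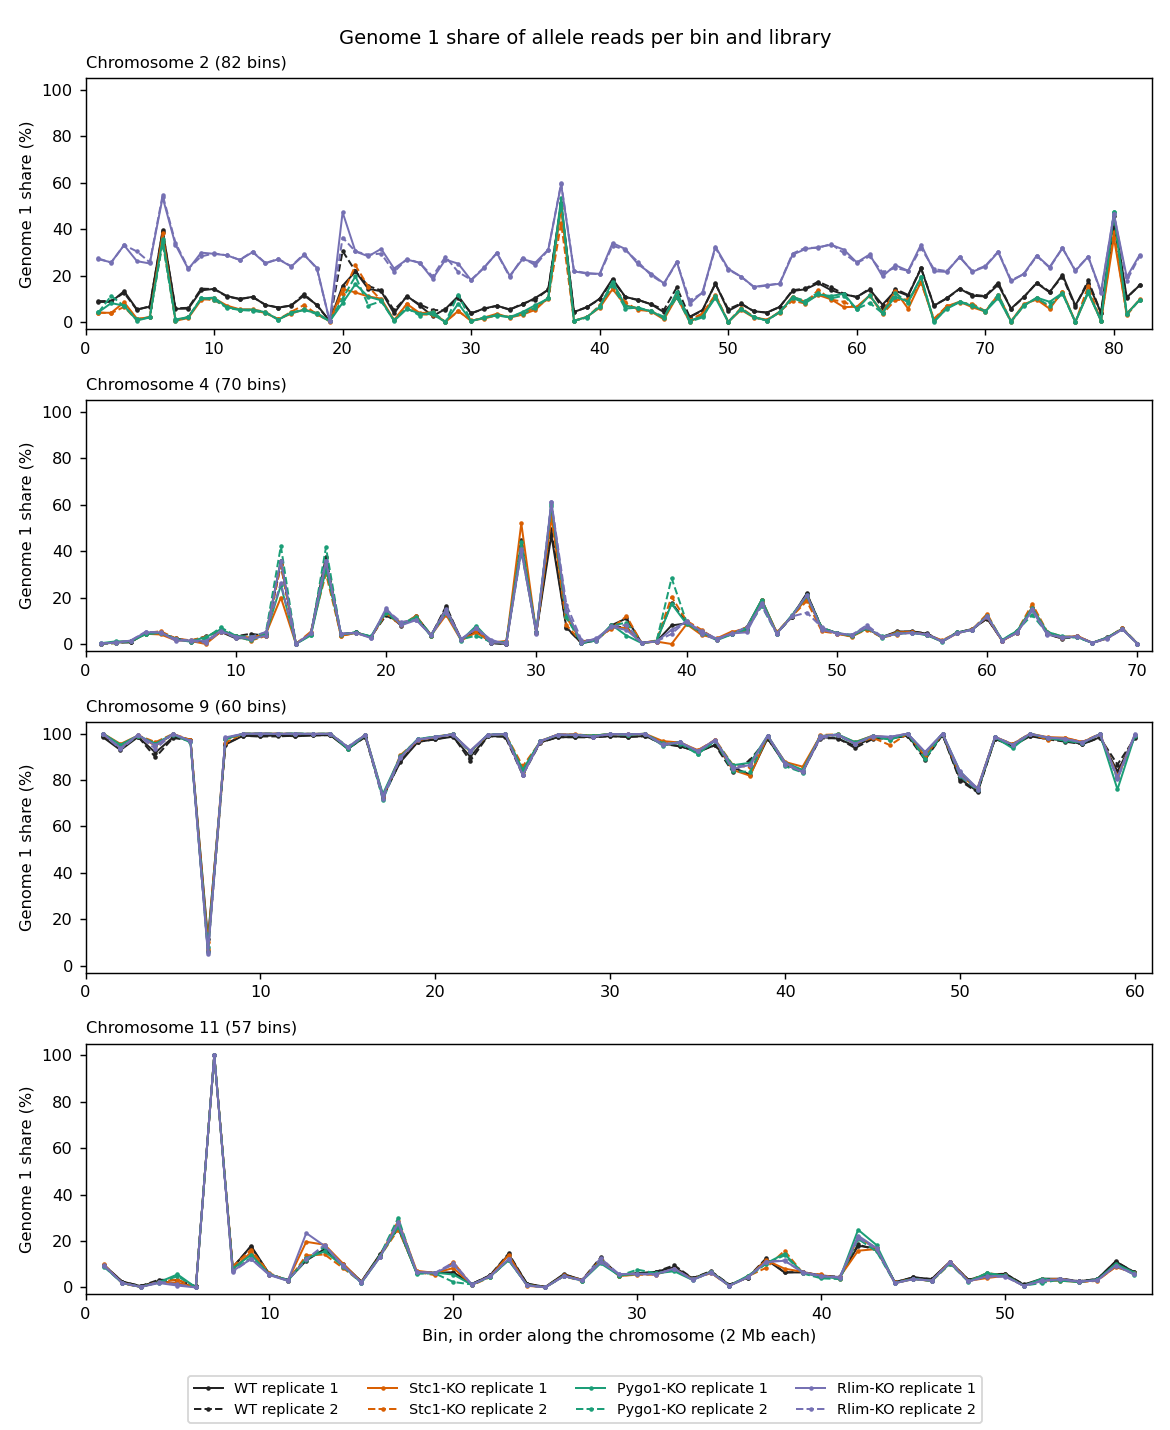
Genome 1 share of allele-assigned reads (%, vertical axis) in each 2 Mb bin along chromosomes 2, 4, 9 and 11 (horizontal axis, bins in order), with a line for each of the 8 libraries. The Rlim-labelled lines run above all others along most of chromosome 2 (not at 40 to 42 Mb or 176 to 178 Mb), where the pooled share is 25.75% and 25.8%, and the 8 lines lie close together in most bins of chromosomes 4, 9 and 11.

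The separation on chromosome 2 ran along its length. The median bin held 10.59% and 10.33% genome 1 in WT, 5.47% and 5.83% in the Stc1-labelled, 5.67% and 5.89% in the Pygo1-labelled, and 25.78% and 25.8% in the Rlim-labelled libraries. Both Stc1-labelled libraries lay below both WT libraries in 78 of the 82 bins and above in 0. Both Pygo1-labelled libraries lay below in 75 and above in 1, and both Rlim-labelled libraries lay above in 81 and below in 1. Over all 1063 autosomal bins the libraries of a label lay below both WT libraries in 30.7% for Stc1, in 30.1% for Pygo1 and above them in 43.8% for Rlim. Since the WT shares entered the choice of the chromosome, nothing is tested here.

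The median difference from WT per bin was -4.12 points for the Stc1 label, -4.04 for Pygo1 and 14.99 for Rlim. Divided at 68 Mb, a position chosen after the values were seen, the Rlim-labelled libraries exceeded WT by a median of 17.2 and 16.9 points in the first 29 bins and by 13.2 and 13.1 in the other 53. The Stc1-labelled libraries lay 4.2 and 4.4 points below WT in the first stretch and 4.2 and 3.9 below in the second. The difference of the Stc1 label was thus of like size on both sides of that position, and that of the Rlim label was wider before it.

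In 8 bins of chromosome 2 the genome 1 share was under 1% in all 4 Stc1- and Pygo1-labelled libraries, at 40, 64, 68, 84, 116, 160, 170 and 174 Mb (first position of each bin). Their pooled share was 4.27% and 4.28% in WT, 0.56% and 0.54% in the Stc1-labelled, 0.58% and 0.51% in the Pygo1-labelled, and 18.08% and 18.25% in the Rlim-labelled libraries. The bin at 170 to 172 Mb reached 0.0% in Stc1-labelled library 2. These bins were chosen for their low values, which therefore support nothing on their own.

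Single genes gave the same order with less weight on the most transcribed. Among 887 genes of chromosome 2 with at least 50 allele reads in every library, the median genome 1 share was 6.82% and 6.93% in WT, 1.35% and 1.38% in the Stc1-labelled, 1.45% and 1.35% in the Pygo1-labelled, and 23.43% and 23.31% in the Rlim-labelled libraries. Genes under 1% numbered 24 and 22 in WT, 423 and 420 in the Stc1-labelled, 426 and 427 in the Pygo1-labelled, and 6 and 7 in the Rlim-labelled libraries. The median over genes was thus below the pooled share in every library.

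On chromosome 9 the same measure gave 1.35% and 1.35% genome 2 in WT over 638 genes. It gave 0.14% and 0.12% in the Stc1-labelled, 0.13% and 0.08% in the Pygo1-labelled, and 0.14% and 0.14% in the Rlim-labelled libraries. On chromosome 11 (955 genes) it was 1.62% and 1.77% genome 1 in WT against 0.88 to 1.01% in the 6 knockout-labelled libraries. On chromosome 4 (722 genes) the WT values of 1.1% and 1.26% overlapped those of the knockout-labelled libraries, at 1.15 to 1.37%. The median share of the lesser genome was therefore higher in WT than in every knockout-labelled library on chromosomes 9 and 11, and not on chromosome 4.

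**Figure D2:**
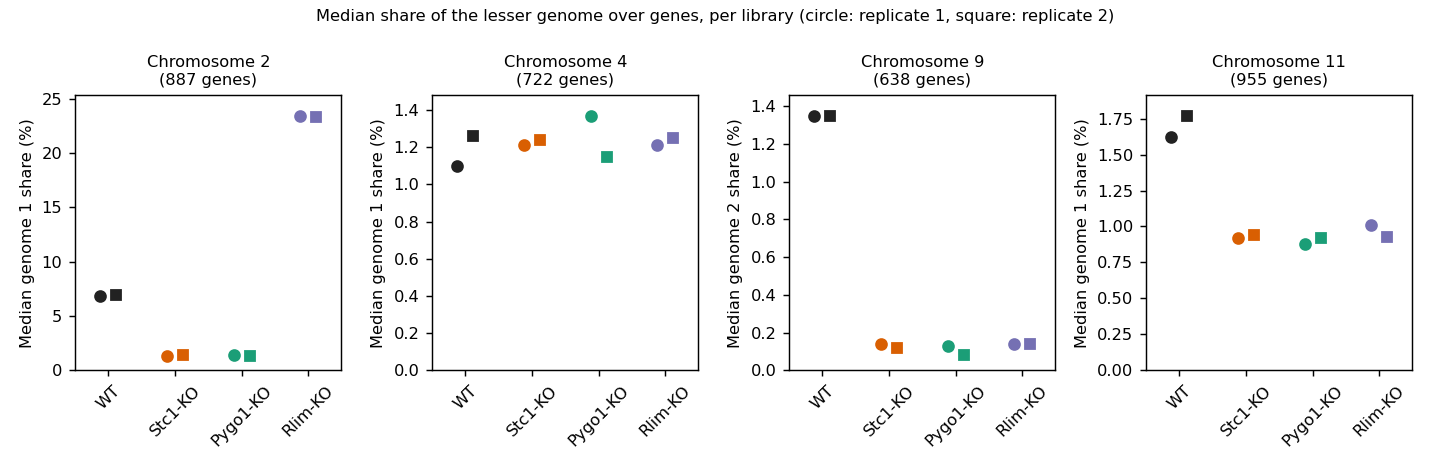
Median share of the lesser genome over genes with at least 50 allele reads in every library (%, vertical axis), for each chromosome and each of the 8 libraries (horizontal axis). On chromosome 2 the Rlim-labelled libraries stand at 23.43% and 23.31%, above WT at 6.82% and 6.93%, and on chromosome 9 all 6 knockout-labelled libraries stand at or below 0.14%.

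The bins of chromosome 9 showed this in another way. Bins with under 1% genome 2 numbered 6 and 6 of 60 in WT, 26 and 26 in the Stc1-labelled, 26 and 24 in the Pygo1-labelled, and 25 and 24 in the Rlim-labelled libraries. The genome 1 share of both libraries lay above both WT libraries in 49 bins for the Stc1 label, 44 for Pygo1 and 47 for Rlim, where 21.7%, 45.2% and 43.8% of all autosomal bins did. It lay below both in 1, 4 and 3 bins. The median difference from WT was small, at 0.96, 0.9 and 0.87 points. An example is the bin at 102 to 104 Mb, with the smallest spread of its chromosome, where genome 2 took 0.58% and 0.6% of reads in WT and at most 0.06% in all 6 others.

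On chromosome 11 the genome 1 share lay below both WT libraries in 33, 42 and 37 of 57 bins for the Stc1, Pygo1 and Rlim labels and above in 5, 7 and 8, where 30.7%, 30.1% and 39.6% of all autosomal bins lay below. The median differences were -0.42, -0.52 and -0.4 points. On chromosome 4 the bins above and below were close in number, 17 and 14 for the Stc1 label, 15 and 15 for Pygo1 and 17 and 19 for Rlim, with median differences of -0.06, -0.02 and -0.03 points. Each of the 3 comparisons uses the same WT pair, so their likeness is not independent.

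Between the knockout labels the share could be tested, since their values did not enter the rule, although the difference on chromosome 2 was known from earlier results. An edgeR quasi-likelihood fit of both genomes' reads in all 1118 bins compared the odds of genome 1 between labels, and a bin was called at a Benjamini-Hochberg adjusted p under 0.05. Between the Rlim and Stc1 labels 80 of the 269 bins had a higher and 3 a lower genome 1 share under the Rlim label, against 12.5% higher and 6.71% lower over all bins. Of the 80, 79 lay on chromosome 2, out of its 82 bins. Between the Rlim and Pygo1 labels 79 bins were higher and 2 lower, against 8.5% and 12.5% over all bins, and 78 of the 79 lay on chromosome 2. The median log2 odds ratio of chromosome 2 was 2.43 and 2.53 in these comparisons. Adjusted p-values of the called bins of chromosome 2 ran from 5.45e-06 to 0.029 and from 3.02e-06 to 0.0123 in edgeR. Leaving out each library in turn gave 71 to 94 and 73 to 90 called bins.

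The bin at 32 to 34 Mb, which holds Lcn2, lay above the chromosome's median odds ratio in both comparisons. It shared the smallest adjusted p with the bin at 84 to 86 Mb, whose log2 odds ratios were larger, at 5.49 ± 0.08 and 5.38 ± 0.08. Its genome 1 share was 6.29% and 6.36% in WT, 1.35% and 1.23% in the Stc1-labelled, 1.09% and 1.13% in the Pygo1-labelled, and 27.15% and 27.3% in the Rlim-labelled libraries. The log2 odds ratio between Rlim and Stc1 labels was 4.84 ± 0.07 (edgeR adjusted p = 5.45e-06) and between Rlim and Pygo1 labels 5.06 ± 0.07 (adjusted p = 3.02e-06). The labels lay far apart, and the libraries of a pair lay close together.

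The bin at 170 to 172 Mb gave the largest fitted odds ratio against the Stc1 label. Its share was 7.27% and 6.77% in WT, 0.14% and 0.0% in the Stc1-labelled, 0.13% and 0.11% in the Pygo1-labelled, and 22.07% and 22.39% in the Rlim-labelled libraries. The log2 odds ratios were 8.6 ± 0.78 (edgeR adjusted p = 0.00141) and 7.87 ± 0.74 (adjusted p = 0.000805), with a large error because almost no genome 1 read was counted in 4 libraries. Because the Stc1-labelled library 2 had none, its fitted ratio against that label depends on the counts that edgeR adds and gives no bound. Against the Pygo1 label the largest was at 64 to 66 Mb (8.49 ± 0.53, adjusted p = 0.000129), where genome 1 took 0.13% and 0.08% in the Pygo1-labelled and 26.98% and 28.24% in the Rlim-labelled libraries.

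Called differences on chromosome 2 were also found where both genomes were well read in WT. At 12 to 14 Mb, where Vim, the intermediate filament protein vimentin, gave 87.8% of the allele reads, genome 1 took 39.69% and 39.06% in WT and 38.24% and 34.69% in the Stc1-labelled libraries. It took 35.66% and 34.36% in the Pygo1-labelled and 53.78% and 54.79% in the Rlim-labelled libraries. The log2 odds ratios were 1.05 ± 0.1 (edgeR adjusted p = 0.00144) and 1.14 ± 0.1 (adjusted p = 0.000498). The bin thus kept the order of the rest of the chromosome from a much higher level.

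Few bins of chromosome 2 did not pass. At 40 to 42 Mb the share was 0.33 to 0.5% in all 8 libraries (edgeR adjusted p = 0.994 and 0.449). The processed pseudogene Gm13456 gave 90.3% of its reads, so reads of a near copy elsewhere cannot be told apart there. At 48 to 50 Mb, led by another processed pseudogene, Gm13509, the share was 21.89% and 22.03% in WT, 12.83% and 24.45% in the Stc1-labelled, 16.4% and 19.84% in the Pygo1-labelled, and 30.49% and 30.5% in the Rlim-labelled libraries (adjusted p = 0.187 and 0.156). At 176 to 178 Mb, where Gm14412 of a zinc finger gene cluster led, it was 36.43 to 47.54% over the 8 libraries (adjusted p = 0.0937 and 0.881). At 82 to 84 Mb Itgav, the integrin subunit alpha V, gave 84.3% of the reads. The share was 49.22% and 42.79% in the Stc1-labelled, 53.35% and 50.97% in the Pygo1-labelled, and 59.36% and 59.86% in the Rlim-labelled libraries, and it passed against the Stc1 label (adjusted p = 0.0198) and not against Pygo1 (adjusted p = 0.124).

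Outside chromosome 2, the Rlim label differed from Stc1 in 1 of 70 bins of chromosome 4, 2 of 60 of chromosome 9 and 1 of 57 of chromosome 11, and from Pygo1 in 1 bin of each. On chromosome 9, genome 1 at 62 to 64 Mb, where Smad3, a signal transducer of TGF-beta, led, took 99.09% and 99.06% in the Stc1-labelled, 99.09% and 99.0% in the Pygo1-labelled and 98.68% and 98.64% in the Rlim-labelled libraries. The log2 odds ratios of the Rlim label were -0.54 ± 0.09 against Stc1 (edgeR adjusted p = 0.0108) and -0.49 ± 0.09 against Pygo1 (adjusted p = 0.0135). At 40 to 42 Mb of chromosome 4 genome 1 took 3.52% and 3.48% in the Stc1-labelled and 4.38% and 4.49% in the Rlim-labelled libraries (0.35 ± 0.06, adjusted p = 0.0153). At 18 to 20 Mb of chromosome 11, where Spred2, an inhibitor of MAP kinase signalling, gave 97.0% of reads, it took 15.24% and 16.25% in the Stc1-labelled and 12.28% and 12.3% in the Rlim-labelled libraries (-0.41 ± 0.1, adjusted p = 0.0477). At 10 to 12 Mb of that chromosome, led by Fignl1, it took 5.62% and 4.84% in the Pygo1-labelled and 0.81% and 1.32% in the Rlim-labelled libraries (-2.36 ± 0.47, adjusted p = 0.0201). In points of share these differences were small beside most of those on chromosome 2.

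The Pygo1 and Stc1 labels differed in 13 bins, 5 higher and 8 lower in the Pygo1-labelled libraries, against 13.4% and 4.92% of all bins. Of these 5 lay on chromosome 2, 3 on chromosome 4 and 5 on chromosome 9, with edgeR adjusted p-values from 0.00462 to 0.0472. The clearest was at 4 to 6 Mb of chromosome 2, where genome 1 took 4.09% and 3.87% in the Stc1-labelled and 8.27% and 11.36% in the Pygo1-labelled libraries (log2 odds ratio 1.38 ± 0.17, adjusted p = 0.00462). That bin holds Phyh, the peroxisomal enzyme of phytanic acid breakdown, which rose in the Pygo1-labelled libraries and gave 20.95% and 20.14% genome 1 there. Phyh stood at 7.88 and 8.4 CPM in WT, 3.23 and 1.38 in the Stc1-labelled, 119 and 312 in the Pygo1-labelled, and 11.4 and 11.4 in the Rlim-labelled libraries. The count of 13 bins depended on single libraries: it was 23 and 24 without Stc1-labelled library 1 or 2, and 17 and 15 without Pygo1-labelled library 1 or 2. It was 4 without either WT library and 3 without either Rlim-labelled library.

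The genomes' own levels on chromosome 2 were set beside its total. Genome 1 of its bins stood at 3364 and 3526 CPM in WT, 2063 and 1944 in the Stc1-labelled, 2191 and 2235 in the Pygo1-labelled, and 8903 and 9163 in the Rlim-labelled libraries. Genome 2 stood at 27479 and 28389 CPM in WT, 30525 and 26525 in the Stc1-labelled, 31537 and 32559 in the Pygo1-labelled, and 25665 and 26357 in the Rlim-labelled libraries. On the log2 scale against the WT mean, genome 1 was 1.37 and 1.41 higher and genome 2 was at -0.12 and -0.08 in the Rlim-labelled libraries. The total of the chromosome's bins there was 0.114 and 0.144 above WT. So under the Rlim label genome 1 differed from WT by far the most on this scale, and the larger genome 2 by little. In the Pygo1-labelled libraries genome 1 stood at -0.65 and -0.62 and genome 2 at 0.18 and 0.22. In the Stc1-labelled libraries these were -0.74 and -0.83, and 0.13 and -0.07.

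**Figure D3:**
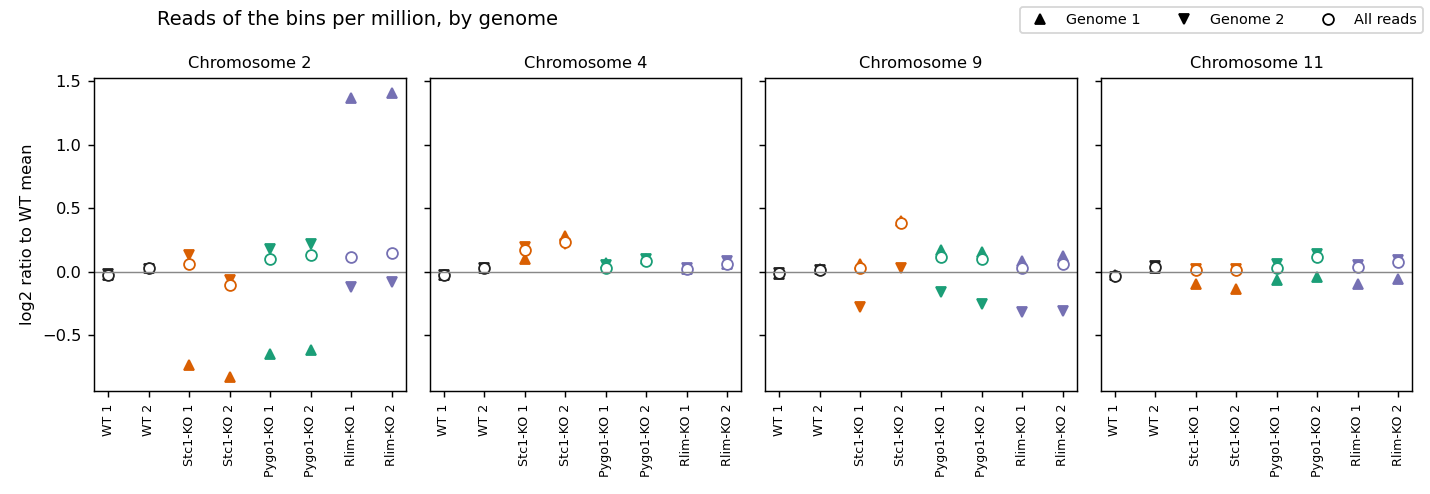
Log2 ratio to the WT mean (vertical axis) of genome 1 reads, genome 2 reads and all reads, summed over the bins of each chromosome, for each of the 8 libraries (horizontal axis). Genome 1 of chromosome 2 stands at 1.37 and 1.41 in the Rlim-labelled libraries, while all reads of the chromosome stand at 0.114 and 0.144.

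Total counts per bin did not enter the choice of the chromosomes and were tested against WT with edgeR over 1232 bins. For the Stc1 label 0 of the 269 bins were called, against 0.406% of all bins. At an unadjusted p under 0.05 it was 32 bins (15.6% of all bins), and DESeq2 called 16 (7.79% of all). For the Rlim label 0 were called, against 1.7% of all bins, with 31 at an unadjusted p under 0.05 (18.8% of all) and 13 in DESeq2 (10.6% of all). For the Pygo1 label 4 bins rose and 1 fell, against 1.62% and 1.38% of all bins, with 29 at an unadjusted p under 0.05 (21.6% of all) and 21 in DESeq2 (15.0% of all). These counts hung on single libraries. Without Stc1-labelled library 1 the Stc1 label had 108 called bins, without library 2 it had 25, and without any other library 0. The Pygo1 label had 53 without either Stc1-labelled library, 1 without Pygo1-labelled library 1, and 0 without Pygo1-labelled library 2 or any WT or Rlim-labelled library. The Rlim label had 39 without either Stc1-labelled library, 2 and 1 without Pygo1-labelled library 1 or 2, and 0 without any other.

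The Stc1-labelled libraries differed from each other more than other pairs did. Within a pair the median absolute log2 difference per bin was 0.284 for them, against 0.072 in WT, 0.102 for Pygo1 and 0.045 for Rlim, and 62 of the 269 bins differed by over 0.5 against 0, 7 and 0. On chromosome 9 Stc1-labelled library 2 lay above the WT mean in 53 of 60 bins with a median of 0.35, and library 1 in 37 with a median of 0.02. Both lay above both WT libraries in 25 bins of chromosome 9 and below in 4, where 24.4% and 21.1% of all autosomal bins did. On chromosome 2 library 2 lay below the WT mean in 25 of the 29 bins before 68 Mb, with a median of -0.42, and had a median of -0.03 in the 53 bins after it, while library 1 had 0.09 and 0.03. On chromosome 4, divided at 52 Mb, library 1 lay above the WT mean in 17 of the first 21 bins with a median of 0.27 and had -0.03 after it, whereas library 2 had 0.04 in the first stretch and 0.3 in the second, with 38 of 49 bins above. Both positions were chosen after the values were seen. Their genome 1 shares also differed more than in the other pairs, by a median of 0.436 points per bin against 0.225 in WT, 0.246 for Pygo1 and 0.21 for Rlim. Library 2 also held less mitochondrial RNA, and Cdh5, an endothelial cadherin, stood at 97.7 CPM in it and at most at 6.48 in the other 7. The part of these in the differences was not tested.

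**Figure D4:**
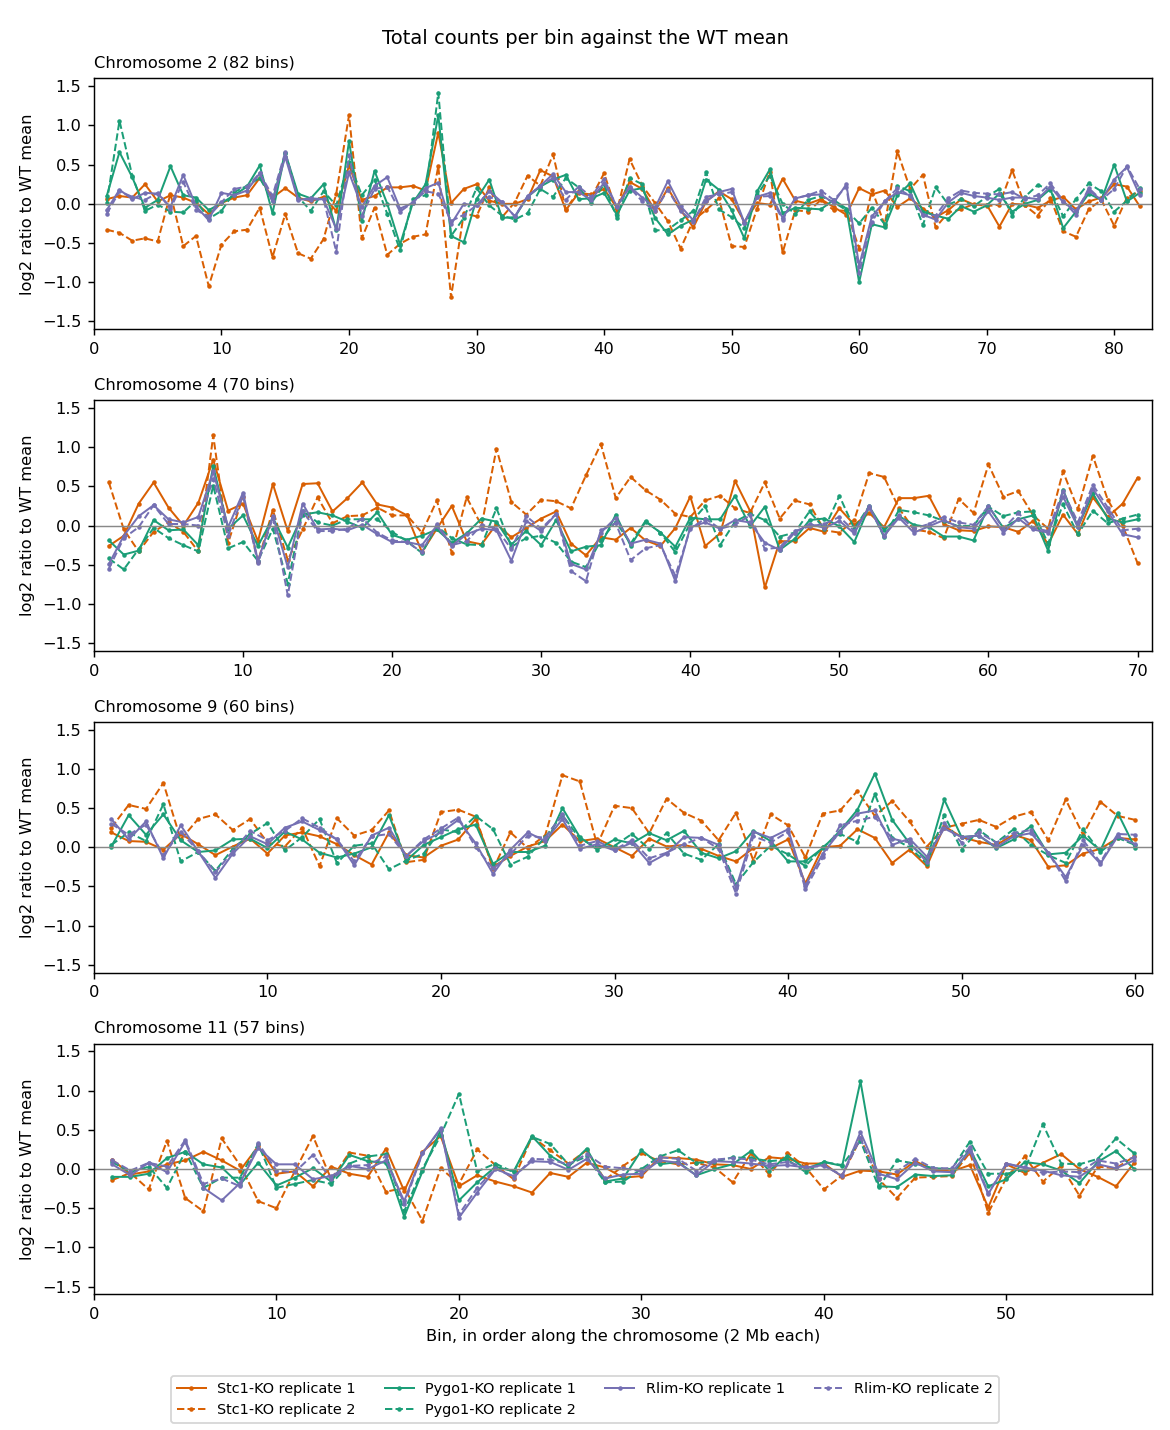
Log2 ratio of each bin's total counts to the WT mean (vertical axis) along the bins of chromosomes 2, 4, 9 and 11 (horizontal axis, bins in order) for the 6 knockout-labelled libraries. Stc1-labelled library 2 lies apart over the first 29 bins of chromosome 2 (median -0.42) and along chromosome 9 (median 0.35). The Rlim-labelled libraries have medians of 0.08 and 0.09 on chromosome 2 and of 0.09 and 0.09 on chromosome 9.

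Under the Rlim label the totals of chromosome 2 lay slightly above WT. Both libraries lay above the WT mean in 60 of 82 bins, with medians of 0.08 and 0.09, and both lay above both WT libraries in 51 bins and below both in 18. Over all autosomal bins 41.4% lay above and 38.1% below in that comparison. Chromosome 9 was alike under the Rlim label, with medians of 0.09 and 0.09. There 34 of 60 bins lay above both WT libraries and 14 below both. Pooled over the bins of chromosome 2, the total was 0.101 and 0.134 above WT in the Pygo1-labelled libraries. In the Rlim-labelled libraries it was 0.114 and 0.144 above. The slight rise was thus particular neither to this chromosome nor to this label. No bin of chromosome 2 was called in edgeR. The nearest to the threshold among those named was 32 to 34 Mb (0.63 ± 0.12, adjusted p = 0.0617).

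The bins called under the Pygo1 label each followed few genes. At 32 to 34 Mb of chromosome 2 the total stood at 2498 and 2661 CPM in WT, 2956 and 2356 in the Stc1-labelled, 4049 and 4058 in the Pygo1-labelled, and 3916 and 4090 in the Rlim-labelled libraries (Pygo1 label 0.65 ± 0.12, edgeR adjusted p = 0.0477). Lcn2, an iron-carrier-binding protein secreted in inflammation, added 962 CPM to it. At 102 to 104 Mb of chromosome 9 the total stood at 2056 and 2150 CPM in WT and at 3201 and 2789 in the Pygo1-labelled libraries (0.51 ± 0.09, adjusted p = 0.0477). There Slco2a1, a prostaglandin transporter, stood at 1212 and 1258 CPM in WT and 2191 and 1795 in the Pygo1-labelled libraries and did not pass alone (0.69 ± 0.14, adjusted p = 0.0631).

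At 94 to 96 Mb of chromosome 9 the total was 87.1 and 82.5 CPM in WT and 163 and 136 in the Pygo1-labelled libraries (0.82 ± 0.14, edgeR adjusted p = 0.046). Chst2, a sulfotransferase, rose from 16.4 and 18.2 to 69.9 and 43.9 CPM (1.72 ± 0.27, adjusted p = 0.035). At 62 to 64 Mb of chromosome 2 the total was 10.4 and 9.58 CPM in WT and 21.9 and 26.7 in the Pygo1-labelled libraries (1.28 ± 0.19, adjusted p = 0.0387), nearly all from Dpp4, a cell-surface peptidase whose gene overlaps another. At 40 to 42 Mb of chromosome 11 the total fell from 159 and 158 to 104 and 109 CPM (log2 change -0.57 ± 0.08, adjusted p = 0.0367). The processed pseudogene Gm12138 fell there from 49.6 and 51.9 to 8.65 and 9.87 CPM, and its reads may belong to a near copy. In these bins the WT and Pygo1-labelled libraries did not overlap.

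Of 4820 tested genes in the bins, 14 rose and 22 fell under the Stc1 label, 80 and 33 under Pygo1, and 46 and 20 under Rlim. Over all 17839 genes 0.286% rose and 0.291% fell for Stc1, 1.54% and 0.807% for Pygo1, and 0.785% and 0.617% for Rlim. On chromosome 2, with 1375 tested genes, 3 rose and 10 fell under Stc1, 25 and 10 under Pygo1, and 26 and 4 under Rlim. On chromosomes 4, 9 and 11 the Rlim label had 7 and 2, 4 and 5, and 9 and 9. The counts over the bins moved strongly with single libraries. Without a Stc1-labelled library they were 1267 and 300 for Stc1, 877 and 874 for Pygo1 and 776 and 781 for Rlim. Without a WT library they were 3 and 2, 4 and 4, and 2 and 2, and without a Rlim-labelled library 6 and 6, 11 and 11, and 2 and 2. Without Pygo1-labelled library 1 or 2 they were 41 and 40, 55 and 49, and 65 and 64.

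Among genes of chromosome 2 that were read mostly from genome 1 in WT, Sirpa and Stom changed in opposite directions between labels. Sirpa, a macrophage and neuronal receptor for CD47, stood at 13.6 and 13.9 CPM in WT with 90.59% and 88.06% genome 1. It stood at 0.111 and 0.12 CPM in the Stc1-labelled, 0.0881 and 0.11 in the Pygo1-labelled, and 52.2 and 54.8 in the Rlim-labelled libraries. The log2 changes were -6.88 ± 0.19, -7.1 ± 0.19 and 1.96 ± 0.13 (edgeR adjusted p = 5.68e-05, 2.54e-05 and 0.00373), with reads shared with other Sirp genes left uncertain. The libraries of WT, of the Rlim label and of both other labels formed 3 levels without overlap.

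Stom, the membrane protein stomatin, showed the same order. It stood at 4.21 and 4.79 CPM in WT with 88.27% and 81.4% genome 1, at 0.173 to 0.327 in the 4 Stc1- and Pygo1-labelled libraries, and at 18.1 and 18.3 in the Rlim-labelled libraries. The changes were -4.5 ± 0.27, -4.03 ± 0.26 and 2.02 ± 0.22 (edgeR adjusted p = 0.0025, 0.00187 and 0.0198). Malrd1 and Tgm5, both at under 0.5 CPM in WT, were the other genes of chromosome 2 called in opposite directions between labels. All 4 genes were singled out after their values were seen.

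Other genes of the chromosome, partly read from genome 1 in WT, were called for their level under some labels only. Olfm1, a secreted olfactomedin, had 40.95% and 40.52% genome 1 in WT and stood at 24.1 and 25.4 CPM there, 1.63 and 2.62 in the Stc1-labelled, 33.8 and 20 in the Pygo1-labelled, and 32.0 and 35.0 in the Rlim-labelled libraries. It fell under the Stc1 label (-3.54 ± 0.33, edgeR adjusted p = 0.0135), and its genome 1 share was 87.49% and 85.23% in the Rlim-labelled libraries against at most 8.64% in the Stc1- and Pygo1-labelled ones. Chst1, a keratan sulfate sulfotransferase, had 13.34% and 14.17% genome 1 in WT. It fell from 38.3 and 39.9 CPM to 10.4 and 7.8 in the Stc1-labelled libraries (-2.1 ± 0.17, adjusted p = 0.00738). In the Pygo1-labelled libraries it fell to 10.8 and 11.8 (-1.79 ± 0.16, adjusted p = 0.00775). Its genome 1 share was 1.47% and 4.72% in the Stc1-labelled, 5.41% and 4.62% in the Pygo1-labelled, and 35.5% and 33.78% in the Rlim-labelled libraries. The part of its genome 1 copy in the falls was not tested.

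Sorted by their genome 1 share in WT, with at least 20 allele reads in each WT library, the genes of chromosome 2 had small median changes under the Rlim label. The median log2 change was -0.01 in 348 genes under 5%, 0.08 in 488 genes from 5 to under 20%, 0.1 in 144 genes from 20 to under 50% and 0.03 in 34 genes from 50%. A log2 change above 0 was found in 170, 304, 88 and 18 of them. Among the 34 genes from 50%, the median under the Pygo1 label was -0.23, with 3 that fell, and under the Stc1 label -0.05, with 3 that fell. Over all tested genes 0.807% fell under the Pygo1 label and 0.291% under Stc1. Genes with 50% or more of the lesser genome on chromosomes 4, 9 and 11 had medians of -0.09, -0.1 and -0.18 under Pygo1. Under Stc1 these were 0.08, -0.03 and -0.15. The median over all tested genes was 0.014 for Stc1, -0.001 for Pygo1 and 0.006 for Rlim. These classes were set from the WT shares and are given without a test.

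Genes that rose or fell alike under all labels lay in the bins as well. The 3 labels share the WT pair, so the changes are given side by side. Lcn2 stood at 61.5 and 62.1 CPM in WT, 265 and 269 in the Stc1-labelled, 1136 and 913 in the Pygo1-labelled, and 1073 and 1104 in the Rlim-labelled libraries (2.11 ± 0.14, 4.05 ± 0.15 and 4.14 ± 0.15, edgeR adjusted p = 0.00397, 0.000181 and 0.000241). Its genome 1 share was 12.87% and 13.34% in WT, at most 0.3% in the Stc1- and Pygo1-labelled, and 33.24% and 33.57% in the Rlim-labelled libraries. Its level thus rose under every label, whereas its genome 1 share was lower under 2 labels and higher under the third.

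Nos2, the inducible nitric oxide synthase on chromosome 11, stood at 5.13 and 4.99 CPM in WT, 122 and 338 in the Stc1-labelled, 348 and 191 in the Pygo1-labelled, and 191 and 202 in the Rlim-labelled libraries. The changes were 5.5 ± 0.56, 5.74 ± 0.57 and 5.28 ± 0.56 (edgeR adjusted p = 0.0161, 0.00983 and 0.0182), and its genome 1 share stayed between 12.49% and 19.44%. Zc3h12a, an RNase that degrades inflammatory transcripts, rose on chromosome 4 from 11.7 and 11.4 CPM to 41.5 to 60.1 CPM in the 6 knockout-labelled libraries, with at most 0.19% genome 1 in any library. Tnfrsf9, a costimulatory receptor whose gene overlaps another, stood at 1.09 and 1.14 CPM in WT and at 6.69 to 15.2 in the 6 others and was called under each label. The 6 immune markers summed to 1.8 and 2.4 CPM in WT and 2.7 to 7.8 in the others, with Cd3e at 0 in all 8, and their part in these rises was not tested.

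Fxyd2, a regulator of the sodium pump in kidney epithelium, fell on chromosome 9. It stood at 73.3 and 79.6 CPM in WT, 8.48 and 8.19 in the Stc1-labelled, 0.705 and 0.702 in the Pygo1-labelled, and 4.34 and 3.88 in the Rlim-labelled libraries (-3.2 ± 0.13, -6.76 ± 0.16 and -4.22 ± 0.14, edgeR adjusted p = 0.000561, 2.4e-05 and 0.000236). Between 99.85% and 100% of its allele reads were genome 1 in all libraries. Wfdc2, a secreted protease inhibitor of epithelia on chromosome 2, fell from 12.2 and 15.0 CPM to 0.346 to 1.97 in the 6 others (-4.7 ± 0.44, -3.14 ± 0.4 and -4.69 ± 0.43, adjusted p = 0.0135, 0.0178 and 0.0126). The 8 kidney markers together, all other genes, stood at 3003 and 3151 CPM in WT, 3689 and 3601 in the Stc1-labelled, 2468 and 2773 in the Pygo1-labelled, and 3173 and 3355 in the Rlim-labelled libraries. Their sum was lower than in WT only under the Pygo1 label, and its part in the falls was not tested.

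Further genes passed under 1 or more labels. Lif, a cytokine of the interleukin-6 family on chromosome 11, rose under all 3 labels by 1.44 ± 0.16, 1.03 ± 0.16 and 1.3 ± 0.16 on the log2 scale (edgeR adjusted p = 0.0225, 0.0333 and 0.0252). Prr5l of chromosome 2, which overlaps another gene, rose under the Stc1 and Pygo1 labels by 1.6 ± 0.21 and 1.31 ± 0.21 (adjusted p = 0.0341 and 0.0333). Mapt, the microtubule protein tau on chromosome 11, whose gene overlaps another, was called lower under the Stc1 label only (-1.69 ± 0.2, adjusted p = 0.0262). Under the Pygo1 label Phyh rose by 4.72 ± 0.56 (adjusted p = 0.0161) and Krt17, a keratin of chromosome 11, by 4.48 ± 0.82 (adjusted p = 0.0474), with 17.8 and 61.9 CPM in its libraries against 1.75 and 1.83 in WT. Dlgap3 and Prss35 fell there (-1.91 ± 0.33 and -1.89 ± 0.35, adjusted p = 0.0413 and 0.0494). Under the Rlim label Tbkbp1 of chromosome 11, which overlaps another gene, rose by 2.6 ± 0.38 (adjusted p = 0.0358). Pycr1, an enzyme of proline synthesis on chromosome 11, fell under the Pygo1 and Rlim labels (-1.48 ± 0.23 and -1.49 ± 0.23, adjusted p = 0.0332 and 0.0386).

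Chac1, an enzyme of glutathione breakdown induced in the stress response, fell under all labels on chromosome 2, from 90.7 and 103 CPM to 26 to 44.7 in the 6 others. Its log2 changes were -1.59 ± 0.19, -1.71 ± 0.19 and -1.13 ± 0.19 (edgeR adjusted p = 0.0256, 0.0135 and 0.0461). Its genome 1 share was 2.33% and 2.31% in WT, at most 0.21% in the Stc1- and Pygo1-labelled, and 10.35% and 11.27% in the Rlim-labelled libraries. As with Lcn2, the level had 1 direction under all labels while the share had both.

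Lists of genes on these chromosomes were counted beside all tested genes, of which 0.286% rose and 0.291% fell under Stc1, 1.54% and 0.807% under Pygo1, and 0.785% and 0.617% under Rlim. Of 21 tested inflammation genes, 2 rose under Stc1 (Lcn2 and Nos2), 5 under Pygo1 (with Casp4, Csf2 and Ccl2) and 3 under Rlim (with Cd40), and 0 fell, with median log2 changes of 2.14, 2.56 and 1.73. Cd40 and Csf2 stood at 0.0125 to 0.026 CPM in WT, so no fold is given for them. Of 9 tested kidney epithelium genes, 2 fell under each label (Fxyd2 and Wfdc2) and 0 rose, with medians of -0.55, -0.29 and -0.24. Of 15 tested Hox genes only Hoxb3, which overlaps another gene, fell under the Pygo1 label (-0.65 ± 0.12, edgeR adjusted p = 0.0488). Among 11 imprinted genes, 20 tumour suppressors and checkpoint genes, 25 growth and mitosis genes and 18 matrix genes, 0 were called under any label. These lists were set with earlier results of these data known.

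Imprinted genes can be transcribed mainly or only from a single parent's copy, so a copy's share need not follow that of its bin. Whether the genes below are imprinted in these cells was not tested. H13, a signal peptide peptidase whose gene overlaps another, gave 28.94% and 29.08% genome 1 in WT, 6.21% and 7.68% in the Stc1-labelled, 8.72% and 6.45% in the Pygo1-labelled, and 54.72% and 55.77% in the Rlim-labelled libraries. Gnas, the stimulatory G protein subunit, gave 2.9% and 2.91% in WT, 0.12 to 0.22% in the Stc1- and Pygo1-labelled, and 10.27% and 9.88% in the Rlim-labelled libraries, at 1417 to 1607 CPM over all 8. Blcap gave 7.75% and 9.05% in WT, 3.19 to 4.05% in the Stc1- and Pygo1-labelled, and 20.26% and 21.27% in the Rlim-labelled libraries. Bcl2l1, an inhibitor of apoptosis, gave 25.5% and 26.05% in WT, 20.92 to 21.9% in the Stc1- and Pygo1-labelled, and 36.12% and 35.46% in the Rlim-labelled libraries. These 4 kept the order of chromosome 2. Mcts2, which lies within H13, did not: with 29 to 70 reads a library, genome 1 took 0.0% and 3.45% in WT, at most 6.52% in the Stc1- and Pygo1-labelled, and 0.0% and 2.27% in the Rlim-labelled libraries. Gatm, an enzyme of creatine synthesis with few reads, gave 31.43% and 30.43% in WT and 21.43% and 11.11% in the Rlim-labelled libraries, also outside that order. Gnas and Blcap overlap other genes too, so that without a known strand setting their own shares are uncertain.

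In 12 of the 269 bins the lesser genome took at least 20% of reads in all 8 libraries; these bins are described here by their genes. The gene with the most reads gave over 50% of the allele reads in 8 of these 12 bins and in 92 of the other 257. It was a pseudogene in 4 of the 12 and in 3 of the 257. Genes with at least 50 reads numbered a median of 2 in the 12 and 9 in the others. These bins therefore mostly reported single genes.

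At 14 to 16 Mb of chromosome 11 all reads came from the processed pseudogene Gm12009 and all were genome 1, against the rest of the chromosome. At 16 to 18 Mb of chromosome 9 the pseudogene Gm5611 gave 90% of reads and genome 2 took 88.4 to 95.1%. At 72 to 74 Mb of chromosome 4, Aldoart1, an aldolase retrogene, gave 41.9% of reads with 99.72 to 100% genome 1, beside Tle1, a transcriptional corepressor that overlaps another gene, with 19.7 to 25.37%. Retrogenes and processed pseudogenes are copies of spliced transcripts, so their reads may come from the parent gene on another chromosome. That was not tested.

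Protein-coding genes led other such bins. At 38 to 40 Mb of chromosome 9 Vwa5a gave 99.1% of reads, with genome 1 between 71.27% and 73.73% in all 8 libraries. At 106 to 108 Mb of chromosome 9, with 37 genes of at least 50 reads, genome 2 took 23.5 to 25.4%. Its leading gene, Gnai2, an inhibitory G protein subunit that overlaps another gene, gave 66.62 to 68.68% genome 1, and Sema3f, a secreted guidance protein, gave 73.41 to 77.42%. At 40 to 42 Mb of chromosome 11 genome 1 took 25 to 30.0%. Its leading gene, Mat2b, a subunit of methionine adenosyltransferase, gave at most 0.56%, so the genome 1 reads came from the bin's other genes. Among the 12, only the bin of Gnai2 combined both genomes with more than 9 genes of 50 reads.

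Over single genes, 56 of 3202 with at least 50 reads gave 50% or more to the lesser genome in every library: 13 on chromosome 2, 16 on chromosome 4, 14 on chromosome 9 and 13 on chromosome 11. Pseudogenes made up 30 of the 56 and 74 of the 3202, and the 56 held 0.63% of the allele reads. Among the others, Txn1, thioredoxin of chromosome 4, gave 86.15 to 93.11% genome 1. Guk1, the guanylate kinase of chromosome 11, gave 91.33 to 94.09%. Lars2, a mitochondrial leucyl-tRNA synthetase of chromosome 9, gave 88.28 to 95.32% genome 2. Those of Lars2 were 90.7% and 88.28% in WT and 91.46 to 95.32% in the 6 knockout-labelled libraries, without overlap, whereas for Txn1 and Guk1 the WT libraries lay within the range of the others or overlapped it.

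Raly, an RNA-binding protein gene of chromosome 2 that overlaps another gene, stood against its chromosome in both level and direction. Its genome 1 share was 94.41% and 94.44% in WT, 98.25% and 98.34% in the Stc1-labelled, 97.78% and 97.82% in the Pygo1-labelled, and 84.63% and 84.41% in the Rlim-labelled libraries. Read as genome 2, these are 5.59% and 5.56%, 1.75% and 1.66%, 2.22% and 2.18%, and 15.37% and 15.59%, the order that genome 1 has along the rest of the chromosome. Its level was 197 and 219 CPM in WT and 184 to 247 CPM in the 6 others, and it was not called under any label. Snrpb, a spliceosome protein of the same chromosome, had 58.19% and 59.33% in WT and 66.01% and 66.58% in the Rlim-labelled libraries, in the chromosome's direction. Both were chosen after their values were seen.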

How the data were processed

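Raw counts per gene, deposited by the authors, gave all reads, genome 1 reads and genome 2 reads for 8 libraries. The submitters' processing notes name build mm10, featureCounts, Cufflinks and HISAT2 2.0.5. Their roles, the annotation, the strand setting and how reads were divided between genomes are not given in the sources used here. An alignment to a single reference can favour a genome, so shares were compared between libraries. Of 49670 genes, 49411 matched GENCODE M21 for symbols and positions, and the 259 others (at most 0.0139% of a library) were left out of the bins. In 329 genes both genomes summed to more than all counts, and these were left out of the bins.

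edgeR 4.0.16 under R 4.3.3 fitted totals per bin and counts per gene, with TMM scaling, the default expression filter and a quasi-likelihood test over all 8 libraries (1232 bins, 17839 genes). Shares were fitted on both genomes' counts with a term for each library (1118 bins). Calls used a Benjamini-Hochberg adjusted p under 0.05. The standard errors beside log2 changes were worked back from the test, as the absolute change over the square root of its F statistic. They are approximate, above all for changes near no difference. With 2 libraries against 2, a permutation test cannot go below p = 0.333. Intervals of shares are Wilson intervals at 95%. Counting error only is covered by intervals and floors.

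The members and gene lists were chosen with earlier results of these data known. Named genes were, for each label, the 6 largest rises and falls of called genes in the bins (mean of at least 5 CPM, no overlap with WT), the leading genes of named bins, up to 3 genes per chromosome read against their bin, the imprinted genes and up to 4 members of each other list. Predicted genes were passed over, and those named for the bins they lead, as well as the positions that divide chromosomes 2 and 4, were chosen after the values were seen. Not every gene the rule allows is described.

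The fits were tested on simulated data. For Pygo1 against WT, 67.5% of 4-fold and 0.5% of 2-fold changes among 200 of 17839 genes were recovered, and 86.0% of 2-fold and 9.0% of 1.5-fold changes among 100 of 1232 bins. For Rlim against Stc1, 75.0% of 4-fold and 0.0% of 2-fold changes of odds among 100 of 1118 bins were recovered. False calls made up 8.16% of calls with 4-fold gene changes, 7.53% with 2-fold bin changes and 5.06% with 4-fold changes of odds. The first 2 are above the rate that an adjusted p under 0.05 aims at. DESeq2 1.42.0, other scalings, filters, bin lengths (1 and 4 Mb), read minimums (50 and 200), samples in the fit and each library left out were the alternatives.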

Additional observations from a re-analysis of the deposited data

How the results depend on the processing

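Counts of called bins and genes moved with the tool and the samples in the fit, and the absence of calls for totals was not stable. For the Rlim label 0 bins were called for totals in the main fit and 134 with only the compared groups in the fit. In that setting the share of Rlim against Stc1 and against Pygo1 kept 80 and 83 called bins, beside 83 and 81 in the main fit. For the Stc1, Pygo1 and Rlim labels against WT, DESeq2's Wald test called 16, 21 and 13 bins and 248, 397 and 348 genes, and without an expression filter 103, 208 and 160 genes were called in edgeR. With only the compared groups in the fit, 0 genes were called for Stc1, 16 bins and 383 genes for Pygo1, and 134 bins and 2117 genes for Rlim, and 0 bins differed in share between Pygo1 and Stc1. Bins of 1 Mb gave 1, 8 and 2 calls for totals and 137 for the share of Rlim against Stc1 and also against Pygo1. Bins of 4 Mb gave 1 for Pygo1 totals, 7 for the share of Pygo1 against Stc1 and 45 for each of the other shares, from more or fewer bins by construction. With the leading gene of each bin left out, 2 bins were called for totals of Pygo1, 2 for Rlim and 3 for the share of Pygo1 against Stc1. The cause was not tested.

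Leaving out each library in turn gave 0 to 108, 0 to 53 and 0 to 39 bins for totals of Stc1, Pygo1 and Rlim, and 2 to 1267, 4 to 877 and 2 to 781 genes. For shares it gave 3 to 24 bins for Pygo1 against Stc1, 71 to 94 for Rlim against Stc1 and 73 to 90 for Rlim against Pygo1.

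Whether the replicate numbers pair the samples cannot be told, since each group has only 2 libraries. Correlations of same-numbered deviations over 13065 genes were 0.15, 0.295 and 0.127 among the WT, Pygo1 and Rlim pairs. Those with the Stc1 pair ran from -0.201 to 0.011. A fit with the replicate number as a block called 0 bins for Pygo1 totals, 7, 26 and 10 genes for Stc1, Pygo1 and Rlim, and 6 bins for the share of Pygo1 against Stc1. The Rlim shares kept 80 and 80 called bins with the block. Simulated bins show that 1.5-fold changes of totals and 2-fold changes of odds are mostly missed at this number of libraries.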
